A study of Mus musculus with 12 samples.

Results

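Mesenchymal stromal cells prepared from mouse bone marrow were compared with those prepared from bone fragments, each after the removal of macrophages and other blood cells. The comparison rests on 6 of the 12 RNA sequencing libraries of the series, the 3 called BM sorted and the 3 called BAC depleted, where BM stands for bone marrow and BAC for bone-associated cells. All animals were labelled wild type, and strain, age and sex are not given in the labels. BM sorted cells came from the marrow of both hind limbs and the pelvis, grew on collagen I, and were taken after the first passage by flow sorting as CD51+ and Sca-1+ cells without CD31, CD45, Ly6C and F4/80. BAC depleted cells were released by collagenase I from hind-limb bone fragments, and magnetic beads then took away cells with CD45, Ly6C or F4/80, with no positive selection and no removal by CD31. The growth medium in the labels is alpha MEM without ascorbic acid, with serum, in low oxygen, and no culture time is stated for the bone-associated cells. Skeletal site, release from tissue, culture and the method of purification all differ between the groups, so their effects cannot be told apart. The labels number the libraries of a group 1 to 3 without saying whether they came from separate animals or cultures. A p-value here therefore weighs a difference against library-to-library spread that may be technical, apart from a sex difference within BAC depleted described below.

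Stromal cells of bone and marrow build the collagen scaffold, secrete growth factors and chemokines that hold blood stem cells in place, and give rise to bone, cartilage and fat. Perivascular marrow cells grown on plastic or collagen often take on contractile proteins of smooth muscle, such as gamma and alpha smooth muscle actin. Fibroblasts and cartilage cells on the bone surface are known for small proteoglycans such as decorin, which bind collagen fibrils and growth factors, and a stromal preparation can hold several such cell types at once.

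The 6 libraries held 27937709 to 32164725 counts each. Correlations of log2 CPM (counts scaled to a common library total) were 0.981 to 0.993 among BM sorted libraries, 0.929 to 0.939 among BAC depleted libraries and 0.823 to 0.882 between the groups. BM sorted 2 and 3 were closest to each other (0.993), and BM sorted 1 stood further from both (0.981 with each). The spread within BM sorted therefore depends on whether both libraries of the close pair are in the fit. BAC depleted libraries were the more variable: the median standard deviation (SD) of a gene's log2 CPM was 0.316 against 0.174 in BM sorted, and 340 genes had an SD above 2 against 11. BAC depleted 1 held 43406 counts of Xist and 0 counts of 4 Y-linked genes, against no more than 16 Xist counts and 7545 to 10999 Y-linked counts in each of the other 5. That library therefore had the pattern of female cells and the others that of male cells, so main counts are also given without BAC depleted 1. BAC depleted 1 thus came from another animal than BAC depleted 2 and 3, and the spread of that group is not technical alone. In BAC depleted 3 the thrombospondin gene Thbs1 took 8.11% of all counts, against 1.38% to 2.77% in the other 5 libraries.

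Transcripts of the blood-cell antigens were at or near 0 in both groups. Ptprc, which encodes CD45, had 0, 3 and 1 counts in BM sorted libraries 1, 2 and 3 and 0 in every BAC depleted library. Adgre1, which encodes F4/80, had 3, 1 and 2 counts in BM sorted and 2, 0 and 0 in BAC depleted, and the complement gene C1qa of macrophages had at most 3 counts in any library. Of 20 macrophage markers, 6 had enough counts to be tested, and 1 was higher and 2 were lower in BM sorted, with 0 called either way when any 1 BM sorted library was left out. Over all 20 the summed level was 9.59 to 12.9 CPM in BM sorted and 19.6 to 67.0 CPM in BAC depleted. The lysozyme gene Lyz2 stood at 3.91, 3.38 and 4.19 CPM in BM sorted and at 16.0, 60 and 6.98 CPM in BAC depleted, highest in BAC depleted 2 and without overlap between the groups. Its log2 fold change was -2.85 ± 0.79 (standard error, SE; adjusted p = 0.0336 by edgeR's quasi-likelihood test), and it did not pass without BM sorted 1, 2 or 3 (adjusted p up to 0.115). Log2 fold changes are BM sorted minus BAC depleted throughout.

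Endothelial markers were also low, with summed levels of 8.19 to 8.63 CPM in BM sorted and 15 to 57.9 CPM in BAC depleted. Pecam1, which encodes CD31, had 3, 1 and 2 counts in BM sorted and 10, 22 and 1 in BAC depleted, and Cdh5, the endothelial cadherin, had 0, 0 and 1 and 8, 0 and 0. Of 16 endothelial markers 6 were tested and 3 were lower in BM sorted (1 without BM sorted 2 or BM sorted 3), among them the transcription factor gene Erg at 0.796, 1.34 and 0.972 CPM against 4.46, 4.03 and 48.6 (log2 -4.19 ± 1.14, adjusted p = 0.0323). The high value of Erg is that of BAC depleted 3, and the gene did not pass without BM sorted 1, 2 or 3 (adjusted p up to 0.118). Of 14 pan-haematopoietic markers 4 were tested, and 2 were higher and 1 was lower in BM sorted. Their summed levels were 22.9 to 24.3 CPM in BM sorted and 3.61 to 15.2 CPM in BAC depleted. In BM sorted that sum was mostly Runx3, a transcription factor gene that is also active outside blood, at 21.3, 21.7 and 21.4 CPM against 1.25, 0.806 and 2.45 (log2 3.84 ± 0.41, adjusted p = 0.00304). The lower one was Arhgap45, at 0.265, 0.267 and 0.152 CPM against 12.6, 1.82 and 2.08 (log2 -4.57 ± 0.96, adjusted p = 0.0147), and it did not pass without BM sorted 1, 2 or 3 (adjusted p up to 0.0721). Of 8 osteoclast markers 3 were tested, 1 was higher and 2 did not pass (median -0.26). The higher one was the integrin gene Itgb3, at 60.4, 80.6 and 76.3 CPM against 6.65, 9.08 and 11.6 (log2 2.99 ± 0.24, adjusted p = 0.0019), so it was not near 0 in either group. Acp5 and Oscar had log2 fold changes below 0 (-1.25 and -0.26). What part other cell types have in the differences described next was not tested. In bulk RNA, fewer cells of a type and less RNA per cell cannot be told apart.

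The antigens used to select BM sorted cells are set by that procedure. Itgav, which encodes CD51, was at 441, 474 and 493 CPM in BM sorted and 217, 305 and 323 in BAC depleted, without overlap (log2 0.74 ± 0.19, adjusted p = 0.026). It did not pass without BM sorted 1, 2 or 3 (adjusted p up to 0.101). Ly6a, which encodes Sca-1, was at 143, 150 and 139 CPM against 104, 172 and 118, overlapping between the groups (0.13 ± 0.20, adjusted p = 0.633), so the range of BM sorted lay inside that of BAC depleted. Ly6c1, a gene for Ly6C, was present in both groups despite the removal of Ly6C+ cells, at 42.1, 40.2 and 41.7 CPM against 15.5, 46.3 and 26.0 (0.50 ± 0.37, adjusted p = 0.332).

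In the quasi-likelihood test of edgeR (Benjamini-Hochberg adjusted), 5446 of 14549 genes (37.4%) differed at an adjusted p under 0.05, with 2555 (17.6%) higher and 2891 (19.9%) lower in BM sorted. The counts of called genes in each list below stand beside the 17.6% and 19.9%. At an unadjusted p under 0.05, 7042 genes differed. For 7976 genes (54.8%) every library of one group lay above every library of the other. By size, 3172 of the calls reached 1 or more on the log2 scale and 881 reached 3 or more, of which 340 were higher and 541 lower. Without BAC depleted 1 there were 5472 calls of 14929 genes tested (36.7%; 17.7% higher and 18.9% lower), and 4578 of the 5446 (84.1%) were called in the same direction and 0 in the opposite. The count was 4022 without BM sorted 1, but 2226 without BM sorted 2 and 2099 without BM sorted 3, the close pair. The median log2 fold change of all tested genes was -0.03.

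**Figure D1:**
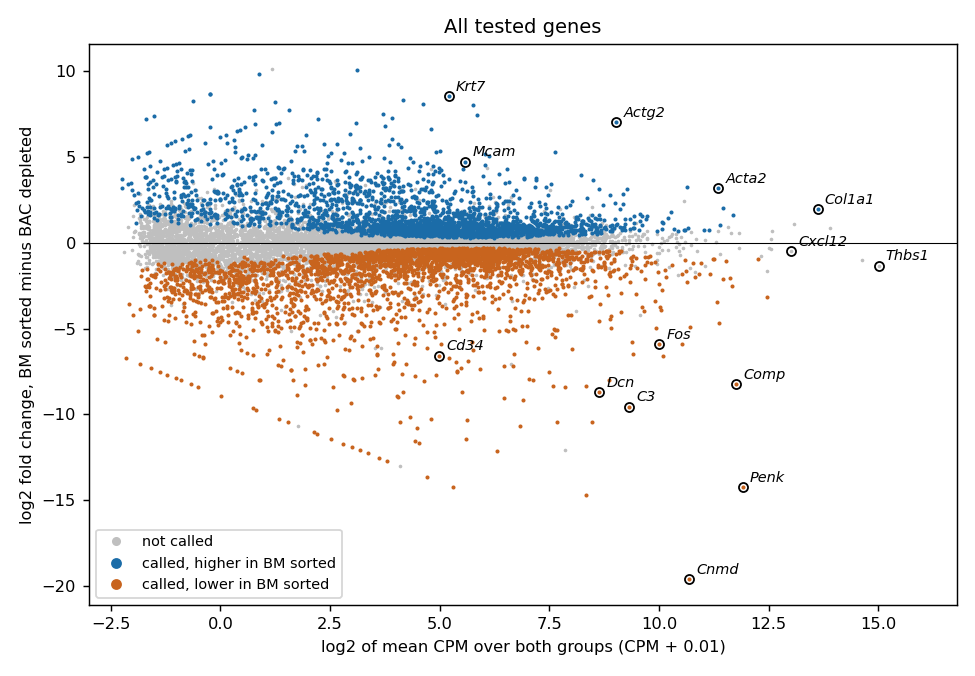
Log2 fold change (BM sorted minus BAC depleted) of the 14549 tested genes against the log2 of the mean CPM over both groups, with called genes in blue (higher in BM sorted) and orange (lower). Named genes are circled, and the falls reach further from 0 than the rises, with Penk at -14.24 and Krt7 at 8.53.

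The 4 marker genes of the comparison separated the groups without overlap. Actg2, which encodes the enteric gamma smooth muscle actin, was at 938, 1105 and 1054 CPM in BM sorted libraries 1, 2 and 3 and at 5.33, 7.99 and 10.9 CPM in BAC depleted. Its log2 fold change was 7 ± 0.35 (adjusted p = 0.00141) and ranged from 6.77 to 7.29 with any 1 library left out. Mcam, which encodes the perivascular adhesion molecule CD146, was at 63.4, 118 and 94.3 CPM against 3.31, 6.2 and 0.858 (4.72 ± 0.71, adjusted p = 0.00602). All 3 BM sorted libraries were thus above every BAC depleted library for both genes. Dcn, which encodes decorin, was at 1.19, 3.03 and 1.43 CPM in BM sorted and at 803, 425 and 1158 CPM in BAC depleted (-8.72 ± 0.66, adjusted p = 0.0019; -9.23 to -8.32 with 1 library left out). Cd34, which encodes a sialomucin of progenitors and fibroblasts, was at 0.365, 1.01 and 0.547 CPM against 63.3, 38.9 and 85.7 (-6.59 ± 0.51, adjusted p = 0.0019). The 4 genes stayed below an adjusted p of 0.05 in each of the 6 fits that left out 1 library.

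**Figure D2:**
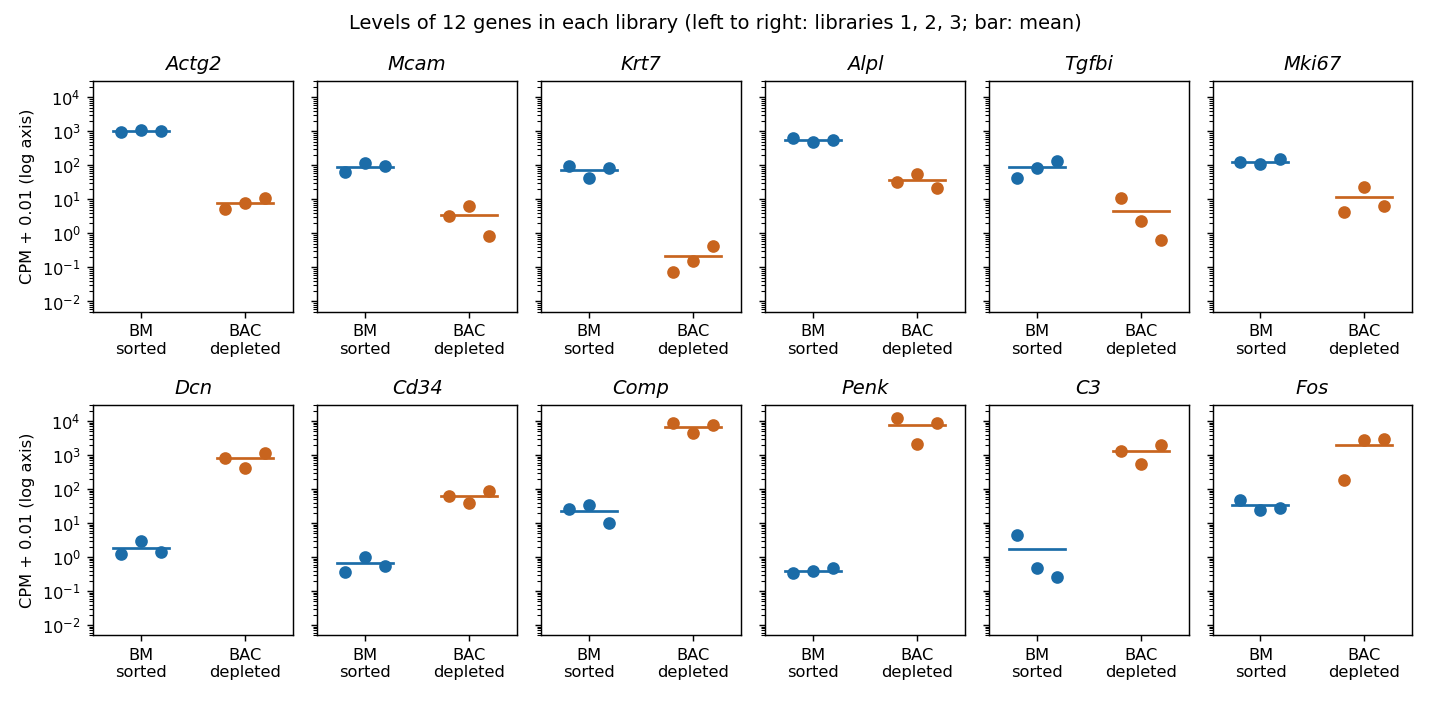
Level of 12 genes in each library, in CPM + 0.01 on a log axis, with 3 points per group in the order of libraries 1 to 3 and a bar at the group mean. The 12 genes were chosen with results known, so their lack of overlap between the groups is no separate result. The groups do not overlap for 54.8% of all tested genes. Fos in BAC depleted 1 (186 CPM) lies well below BAC depleted 2 and 3 (2818 and 3050 CPM).

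Genes with the largest rises in BM sorted were of mixed kinds. Krt7, a keratin of simple epithelia, was at 92.9, 41.4 and 85.9 CPM against 0.0642, 0.140 and 0.408 (8.53 ± 0.66, adjusted p = 0.0019). Plac8, a small cysteine-rich protein, was at 68.2, 120 and 133 CPM against 0.289, 0.456 and 0.490 (8.02 ± 0.39, adjusted p = 0.00141). Cd93, a C-type lectin-like receptor, was at 29.1, 39.2 and 78.0 CPM against 0.128, 0.280 and 0.122 (8.07 ± 0.59, adjusted p = 0.0019). For these 3 genes the BAC depleted libraries all lay below 1 CPM. Gzmd, which encodes granzyme D, was at 19.4, 52.0 and 35.9 CPM against 0, 0.316 and 0, with a log2 fold change of 8.33 ± 1.02 (adjusted p = 0.0038) that was 13.1 without BAC depleted 2, the 1 library of its group with counts. Asb4, Glipr1, B3gnt5, Slfn2, Coch, Clca3a1 and Slc38a4 followed, at mean levels of 25.9 to 115 CPM in BM sorted and 0.142 to 0.638 CPM in BAC depleted. Of 10 epithelial markers 2 had enough counts to be tested and 1, Krt7, was called. The other was the keratin gene Krt19, at 55.9, 45.2 and 57.1 CPM against 0.0642, 7.78 and 0.204, which did not pass (4.29 ± 1.44, adjusted p = 0.06). Their usual keratin partners were near 0, with Krt8 at no more than 3 counts in any library and Krt18 at 9, 22 and 12 counts in BM sorted and 0 in BAC depleted.

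Genes with the largest falls in BM sorted were also of mixed kinds. Cnmd, which encodes the cartilage protein chondromodulin, had 0 counts in BM sorted and 1617, 512 and 7742 CPM in BAC depleted, at least 97574-fold higher there when BM sorted is set to a floor of 3 counts for the whole group. Penk, which encodes the opioid precursor proenkephalin, was at 0.332, 0.386 and 0.456 CPM against 12090, 2119 and 8792 (-14.24 ± 1.02, adjusted p = 0.00181; -14.67 to -13.75 with 1 library left out). Both genes were thus among the abundant RNAs of every BAC depleted library and at or near 0 in every BM sorted library. Scrg1, a cartilage-associated gene, was at least 845-fold higher in BAC depleted, where it stood at 15.2, 13.3 and 55.1 CPM. Hapln1, which encodes the link protein of cartilage proteoglycan, was at 71.2, 79.4 and 324 CPM in BAC depleted with 3 counts over BM sorted, a ratio of 4761 (95% counting interval 1629 to 23088). Thbs4, a thrombospondin of tendon, varied most among these genes within the group, at 1852, 2.07 and 89.2 CPM in BAC depleted libraries 1, 2 and 3 (ratio 34446, 9535 to 284435), and did not pass without BM sorted 1, 2 or 3 (adjusted p up to 0.108). Egfl6, an EGF-like matrix protein, was at 0.663, 0.475 and 0.364 CPM against 1872, 84.5 and 179 (-10.47 ± 1.66, adjusted p = 0.00688). The rest of the 12 were Myoc, Ucma, Cdh16, Dio2, Gfra2 and Cilp, with mean levels of 24.3 to 226 CPM in BAC depleted and at most 0.138 CPM in BM sorted, and Myoc, Ucma, Dio2 and Cilp did not pass without BM sorted 2 or 3, nor Dio2 without BM sorted 1 (adjusted p up to 0.0932).

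The contractile programme of smooth muscle was higher in BM sorted. Of 16 contractile genes, 12 were higher, 0 were lower and 4 did not pass, with a median log2 fold change of 2.18. The summed level of the list was 12300, 14600 and 12800 CPM in BM sorted and 3250, 5510 and 5730 CPM in BAC depleted. The count was 10 without BAC depleted 1, 8 without BM sorted 1 and 7 without BM sorted 2 or BM sorted 3. Acta2, which encodes alpha smooth muscle actin and was chosen after its values were seen, was at 4145, 5313 and 4633 CPM against 310, 1024 and 245 (3.16 ± 0.61, adjusted p = 0.0115). Myocd, which encodes the co-activator myocardin that switches on smooth muscle genes, was low but separate, at 7.89, 6.38 and 8.66 CPM against 0.0321, 0.210 and 0.0408 (6.27 ± 0.64, adjusted p = 0.00268). Myh11, which encodes smooth muscle myosin heavy chain, was at 66.2, 109 and 69.8 CPM against 1.77, 16.5 and 2.45 (3.56 ± 0.91, adjusted p = 0.0268), and did not pass without BM sorted 1, 2 or 3 or BAC depleted 3 (adjusted p up to 0.0836).

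Pericyte genes did not move as a block. Of 9 tested, 2 were higher, 1 was lower and 6 did not pass (median 0.61), with 4 higher and 2 lower without BAC depleted 2. Besides Mcam, the potassium channel subunit gene Abcc9 was higher, at 13.3, 14.5 and 23 CPM against 0.128, 0.210 and 0.0408 (6.99 ± 0.51, adjusted p = 0.00181). Cspg4, which encodes the proteoglycan NG2, went the other way, at 3.61, 2.43 and 1.7 CPM against 56.8, 54.3 and 142 (-5.03 ± 0.54, adjusted p = 0.00305). Pdgfrb, the receptor gene that marks mural cells broadly, was chosen after its values were seen and stood at 457, 520 and 464 CPM against 383, 906 and 420. The groups overlapped for Pdgfrb (-0.25 ± 0.35, adjusted p = 0.609), and the estimate was 0.27 without BAC depleted 2.

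Of 14 genes of the marrow niche stroma, 1 was higher, 2 were lower and 11 did not pass (median -0.32). Both counts lay below the 17.6% and 19.9% of all tested genes. The higher and the lower count were each 3 without BAC depleted 1, and 1 without BM sorted 2 or BM sorted 3. Cxcl14, a chemokine, was higher, at 91.1, 175 and 194 CPM against 2.73, 15.3 and 11.2 (3.98 ± 0.68, adjusted p = 0.0084). Esm1, an endothelial and stromal proteoglycan, was lower, at 30.3, 8.93 and 6.41 CPM against 288, 181 and 256 (-3.99 ± 0.66, adjusted p = 0.00778). Vcam1, which encodes an adhesion molecule for blood progenitors, was at 202, 118 and 107 CPM against 432, 435 and 326 (-1.49 ± 0.29, adjusted p = 0.0111), and did not pass without BM sorted 2 or 3 (adjusted p up to 0.0553). Cxcl12, the chemokine that retains blood stem cells in marrow, was chosen after its values were seen. It was abundant in both groups, at 12520, 4110 and 3856 CPM in BM sorted and 9197, 16390 and 3228 CPM in BAC depleted, and the groups overlapped (-0.49 ± 0.73, adjusted p = 0.621; 0.15 without BAC depleted 2). Lepr, which encodes the leptin receptor of perivascular marrow stroma and was chosen in the same way, was at 20.9, 11.5 and 12.8 CPM against 24.5, 2 and 0.653, with the highest value in BAC depleted 1 (0.73 ± 1.18, adjusted p = 0.654). The niche genes that passed thus included 1 rise and 2 falls, and the most abundant, Cxcl12, did not separate the groups.

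Fibroblast genes of connective tissue were lower in BM sorted: of 17 tested, 11 were lower, 1 was higher and 5 did not pass (median -1.87). The lower count was 10 without BAC depleted 1, 6 without BM sorted 2 and 7 without BM sorted 3. Clec3b, which encodes tetranectin, had 2 counts over BM sorted and stood at 28.7, 17.5 and 0.980 CPM in BAC depleted (ratio 814, 95% counting interval 225 to 6724). Dpp4, a peptidase of fibroblast progenitors, was at 2.41, 13.5 and 86.4 CPM there, also with 2 counts over BM sorted (ratio 1482, 410 to 12240), and did not pass without BM sorted 2 or 3 (adjusted p up to 0.056). The 1 rise was Fbln2, which encodes fibulin 2, at 2738, 3250 and 2600 CPM against 117, 678 and 114 (3.24 ± 0.80, adjusted p = 0.024). That call did not hold without BM sorted 1, 2 or 3 (adjusted p up to 0.074).

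Cartilage genes gave the largest median of the identity lists, -5.94. Of 20 genes 18 were tested, and 14 were lower, 1 was higher and 3 did not pass, with 11 to 14 lower in the fits without 1 library. Summed levels were 1730, 4630 and 4880 CPM in BM sorted and 13800, 10700 and 44500 CPM in BAC depleted, highest in BAC depleted 3. Acan, which encodes the core protein aggrecan, was at 0.564, 2.11 and 0.820 CPM against 127, 300.5 and 715 (-8.34 ± 0.98, adjusted p = 0.0035). Sox9, the transcription factor gene that directs cartilage formation, was at 76.3, 49.4 and 53.7 CPM against 261, 198 and 317 (-2.11 ± 0.25, adjusted p = 0.00346). Both genes were chosen after their values were seen, and every BAC depleted library was above every BM sorted library. Col2a1, the main collagen gene of cartilage, was chosen in the same way and overlapped between the groups, at 988, 3465 and 3847 CPM against 1666, 3584 and 20350. Its log2 fold change of -1.63 ± 1.02 (adjusted p = 0.252) became 0.08 without BAC depleted 3. Col10a1, the collagen gene of hypertrophic cartilage, was the 1 member higher in BM sorted, at 25.2, 30.7 and 30.8 CPM against 10.1, 3.54 and 1.72 (2.49 ± 0.62, adjusted p = 0.0249), and did not pass without BM sorted 1, 2 or 3 or BAC depleted 2 (adjusted p up to 0.0822).

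Of 13 tested genes of the bone-forming lineage, 3 were higher, 1 was lower and 9 did not pass (median 0.47). Alpl, which encodes the alkaline phosphatase needed for mineralisation, was at 652, 474 and 560 CPM against 31.7, 54.7 and 21.8 (3.96 ± 0.39, adjusted p = 0.00255). Dmp1, a matrix protein gene of osteocytes, was lower at 2.06, 1.51 and 2.19 CPM against 16.3, 6.62 and 8.78 (-2.46 ± 0.40, adjusted p = 0.00697). The early gene and the late gene of the lineage therefore stood on opposite sides. Runx2, which encodes the master factor of the lineage and was chosen after its values were seen, was at 111, 83.3 and 85.8 CPM against 64.7, 51.6 and 86.6 (0.47 ± 0.22, adjusted p = 0.144). Tendon genes were lower for 4 of 8 tested (median -2.38; 1 without BM sorted 1, 2 or 3), among them Fmod, which encodes fibromodulin, at 663, 1027 and 1191 CPM against 6388, 2877 and 7438 (-2.54 ± 0.45, adjusted p = 0.00859). Of 12 fat-lineage genes 1 was higher, 2 were lower and 9 did not pass (median 0.31). Without BAC depleted 2 there were 3 each way, and without BM sorted 2 or BM sorted 3 there was 0 lower. The rise was Plin2, a lipid droplet protein gene, at 84.5, 104 and 99.9 CPM against 41.2, 50.4 and 33.9 (1.20 ± 0.18, adjusted p = 0.00541).

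Of 18 tested surface antigen genes used to define stromal cells, 7 were higher, 4 were lower and 7 did not pass (median 0.24). Of all tested genes 17.6% were higher and 19.9% lower, so the lower count was near that share. Without BM sorted 2 or BM sorted 3 the higher and lower surface antigen genes numbered 3 and 2. Thy1, which encodes CD90, was lower in BM sorted, at 13.8, 25.1 and 21.9 CPM against 179, 237 and 242 (-3.44 ± 0.27, adjusted p = 0.0019). Pdgfra, a growth factor receptor gene of fibroblasts, was at 209, 112 and 130 CPM against 511, 582 and 267 (-1.59 ± 0.37, adjusted p = 0.0203), and did not pass without BM sorted 2 or 3 (adjusted p up to 0.0895). Cd200, an immune checkpoint ligand gene, was higher at 31.8, 32.4 and 28.9 CPM against 1.8, 4.63 and 0.408 (3.76 ± 0.76, adjusted p = 0.0132), and likewise did not pass without BM sorted 2 or 3 (adjusted p up to 0.0514).

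Transcription factors of limb and skeletal mesenchyme were lower for 6 of 24 tested, higher for 1, and 17 did not pass (median -0.69), with the 1 rise lost without BM sorted 2 or BM sorted 3. Tbx4, the hind-limb identity factor gene, was near absent in BM sorted at 0.0995, 0.0297 and 0.182 CPM and even across BAC depleted at 10.2, 10.7 and 11.3 CPM (-6.64 ± 0.51, adjusted p = 0.0019). The fore-limb factor gene Tbx5 lay the same way (log2 -5.04), and the hind-limb factor gene Pitx1 differed less (-1.08), so the fall of Tbx4 was not particular to hind-limb factors. Foxd1, a forkhead factor gene, was at 0.232, 0.980 and 0.121 CPM against 7.51, 28 and 29.5 (-5.58 ± 0.94, adjusted p = 0.00795). Osr2, an odd-skipped factor gene of joints, had 0 counts in BM sorted and 2.31, 2.42 and 10.3 CPM in BAC depleted, at least 151-fold higher. The list of posterior Hox genes, which give position along the body and limbs, also took in Hoxc8 and Hoxd8. Of its 11 tested genes, 4 were lower and 7 did not pass (median -0.94). Hoxc11 (1.5), Hoxa11 (0.14) and Hoxb9 (0.01) had log2 fold changes above 0. Hoxd9 was at 0.0995, 0.415 and 0.0304 CPM against 17.5, 3.15 and 9.88 (-5.76 ± 1.04, adjusted p = 0.00951), and Hoxd8 at 0.464, 3.23 and 0.304 CPM against 39.4, 19.8 and 28.4 (-4.44 ± 0.93, adjusted p = 0.0149). Groups did not overlap for 11 of the 24 factors and 6 of the 11 Hox genes, against 54.8% of all tested genes. The 6 factors and 4 Hox genes called lower stand beside 19.9% of all tested genes. Tbx4, Foxd1, Osr2, Hoxd9 and Hoxd8 were picked among the called ones. BM sorted also drew on the pelvis, so site and cell type cannot be told apart.

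**Figure D3:**
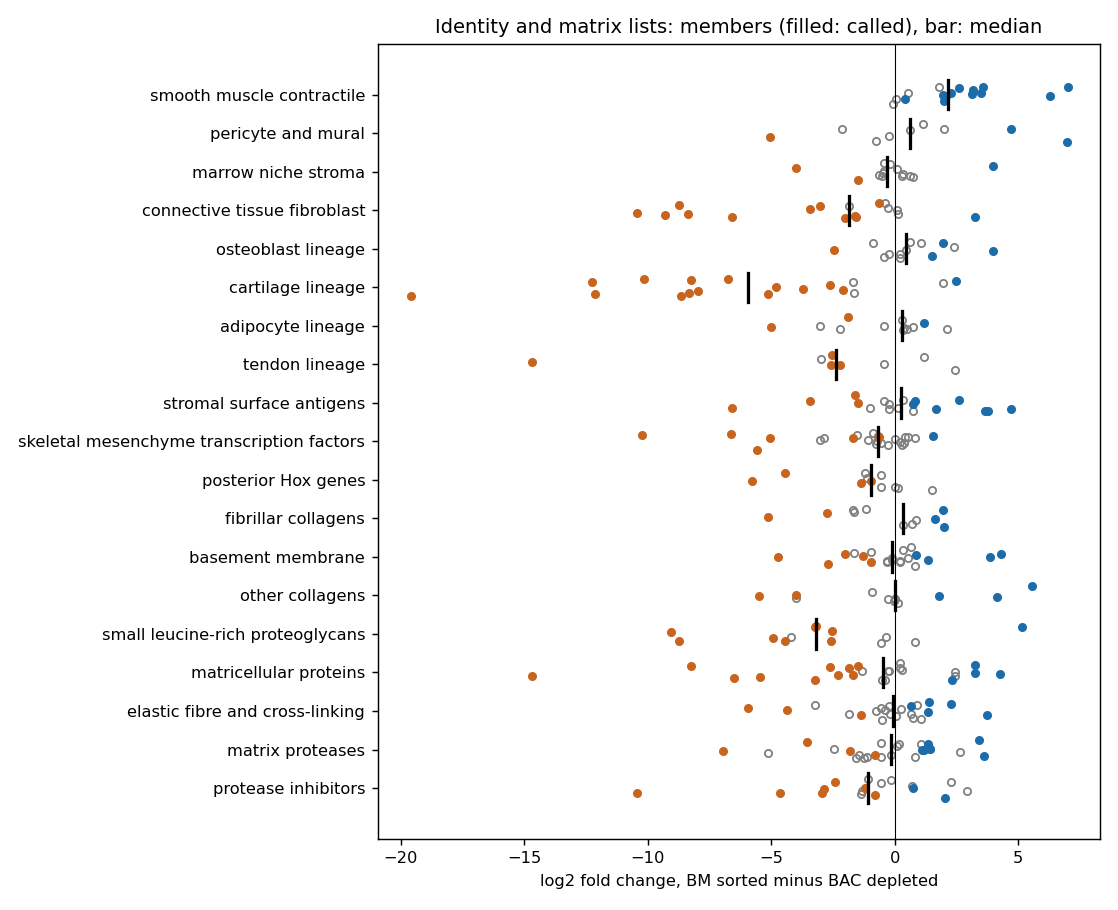
Log2 fold change (BM sorted minus BAC depleted) of each tested member of the identity and matrix lists, filled where called and open where not, with a bar at the list's median. Contractile genes lie mostly right of 0 (median 2.18), and cartilage genes (-5.94) and small leucine-rich proteoglycans (-3.17) mostly left.

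Fibrillar collagen genes, which encode the main fibres of the matrix, did not move together. Of 11 fibrillar collagen genes, 3 were higher, 2 were lower and 6 did not pass (median 0.35). Of all tested genes, 17.6% were higher and 19.9% were lower. Col1a1, which encodes the main chain of type I collagen, was at 18840, 21110 and 19800 CPM against 5561, 3453 and 6334 (1.96 ± 0.34, adjusted p = 0.00813; 1.76 to 2.16 with 1 library left out). Col5a1, whose product starts collagen I fibrils, was at 3749, 5059 and 4571 CPM against 828, 1312 and 1224 (1.99 ± 0.27, adjusted p = 0.00464). Col11a2, a cartilage collagen gene, was at 5.27, 5.05 and 5.22 CPM against 99.2, 99.9 and 353 (-5.15 ± 0.62, adjusted p = 0.00373). The groups did not overlap for these 3 genes. Col1a2 and Col3a1, both chosen after their values were seen, did not pass: Col1a2 was at 20920, 19590 and 18890 CPM against 10460, 7191 and 14580 (0.88 ± 0.35, adjusted p = 0.0943), and Col3a1 at 6686, 7837 and 7952 CPM against 6003, 5754 and 2122 (0.70 ± 0.43, adjusted p = 0.244).

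Small leucine-rich proteoglycans were lower for 8 of 13 tested genes, higher for 1, and 4 did not pass (median -3.17), with 6 to 9 lower in the fits without 1 library. Summed levels were 8180, 7760 and 7360 CPM in BM sorted and 39600, 19800 and 28100 CPM in BAC depleted. Lum, which encodes lumican, was at 0.0332, 0.327 and 0.608 CPM against 393, 81.1 and 52.4 (-9.05 ± 1.28, adjusted p = 0.00518). Prelp, a basement membrane anchor of collagen, was at 101, 138 and 77.0 CPM against 2010, 4221 and 3412 (-4.93 ± 0.42, adjusted p = 0.0019). Podnl1, a podocan-like member, was the exception and stood at 145, 112 and 125 CPM against 4.85, 3.96 and 1.84 (5.16 ± 0.39, adjusted p = 0.0019). Bgn, which encodes biglycan, a close relative of decorin, and was chosen after its values were seen, was at 5925, 5154 and 4707 CPM against 6137, 6935 and 7178 (-0.36 ± 0.23, adjusted p = 0.266). The family was thus split by gene, with Dcn and Lum near absent from BM sorted and Bgn abundant in all 6 libraries.

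Of 24 matricellular genes, whose products regulate cells from within the matrix, 10 were lower, 4 were higher and 10 did not pass (median -0.46); 6 were lower and 2 higher without BM sorted 2 or BM sorted 3. Comp, which encodes cartilage oligomeric matrix protein, was at 25.2, 33.3 and 9.90 CPM against 8548, 4374 and 7626 (-8.23 ± 0.68, adjusted p = 0.0019; -8.60 to -7.86 with 1 library left out). Ccn4, a secreted target of Wnt signals, was higher at 207, 396 and 326 CPM against 17.7, 43.4 and 36.3 (3.25 ± 0.42, adjusted p = 0.00417). Thbs1, which encodes thrombospondin 1 and was chosen after its values were seen, was at 18870, 20250 and 16550 CPM in BM sorted and 13290, 28720 and 99240 CPM in BAC depleted. The spread of Thbs1 lay within BAC depleted and its difference did not pass (-1.34 ± 0.75, adjusted p = 0.203; -0.17 without BAC depleted 3).

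Basement membrane genes gave no common direction, with 4 of 21 higher, 5 lower and 12 that did not pass (median -0.11), near the 17.6% and 19.9% of all tested genes. Lama5, a laminin chain gene, was at 107, 141 and 109 CPM against 8.70, 8.66 and 7.11 (3.87 ± 0.17, adjusted p = 0.00141), and Lama1 at 57.5, 59.7 and 62.9 CPM against 1.73, 6.06 and 1.18 (4.32 ± 0.64, adjusted p = 0.0058). Lamb2 was lower at 255, 228 and 196 CPM against 550, 704 and 409 (-1.29 ± 0.24, adjusted p = 0.00963), and did not pass without BM sorted 2 or 3 (adjusted p up to 0.0558). Without either of these libraries 2 of the list were higher and 1 was lower, without BM sorted 1 there were 2 each way, and without BAC depleted 2 there were 7 higher. Of 12 other collagens, 3 were higher, 2 were lower and 7 did not pass (median 0; 1 lower without BM sorted 2 or 3 or BAC depleted 2), among them Col7a1, the anchoring fibril collagen gene, at 28.2, 47.2 and 56.1 CPM against 1.54, 4.42 and 1.43 (4.15 ± 0.55, adjusted p = 0.00452).

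Of 22 elastic fibre and cross-linking genes, 5 were higher, 3 were lower and 14 did not pass (median -0.07); 3 and 2 were called without BM sorted 2 or BM sorted 3. The counts are near the 17.6% and 19.9% of all tested genes. Fbn2, which encodes fibrillin 2, was at 228, 314 and 278 CPM against 19.3, 13.1 and 28.7 (3.75 ± 0.33, adjusted p = 0.00211). Loxl2, a collagen cross-linking oxidase gene, was at 762, 1133 and 984 CPM against 102, 294 and 204 (2.26 ± 0.41, adjusted p = 0.00946). Efemp1, which encodes fibulin 3, was lower at 52.8, 46.5 and 42.6 CPM against 2719, 1787 and 4159 (-5.93 ± 0.41, adjusted p = 0.00166). These 3 genes, picked among the called ones, passed in each of the 6 fits that left out 1 library.

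Of 25 matrix proteases, 6 were higher, 4 were lower and 15 did not pass (median -0.16). These counts are near the 17.6% and 19.9% of all tested genes. Without BM sorted 2 or BM sorted 3, 4 proteases were higher and 2 lower. Mmp13, a collagenase gene, was at 1229, 483 and 301 CPM against 50.5, 46.1 and 67.4 (3.62 ± 0.57, adjusted p = 0.00684), highest in BM sorted 1. Mmp3, which encodes stromelysin, was lower at 0.133, 0.267 and 0.334 CPM against 43.5, 5.08 and 43.9 (-6.94 ± 1.01, adjusted p = 0.00561). Protease inhibitors were lower for 7 of 17 tested, higher for 2, and 8 did not pass (median -1.07); 4 were lower and 0 higher without BM sorted 2 or BM sorted 3. Cst3, which encodes cystatin C, was at 140, 123 and 126 CPM against 800, 934 and 1239 (-2.93 ± 0.22, adjusted p = 0.00185). Serpina3n, an acute-phase serpin gene, was at 0.497, 0.267 and 0.121 CPM against 39.0, 217 and 961 (-10.42 ± 1.59, adjusted p = 0.00627).

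Complement had the lowest median of the secreted lists in the 6-library fit: of 13 genes tested, 7 were lower, 1 was higher and 5 did not pass (median -2.57), with 6 to 8 lower in the fits without 1 library. C3, the central component, was at 4.34, 0.475 and 0.243 CPM against 1326, 557 and 1919 (-9.56 ± 1.44, adjusted p = 0.00606), and was highest among BM sorted libraries in BM sorted 1. Without BM sorted 1 its log2 fold change was -11.76. C4b, a component of the classical pathway, was at 30.1, 8.37 and 6.99 CPM against 815, 1255 and 1961 (-6.47 ± 0.81, adjusted p = 0.00391). Clu, which encodes the chaperone and complement inhibitor clusterin, was at 45.9, 9.82 and 10.5 CPM against 1547, 999 and 3918 (-6.61 ± 1, adjusted p = 0.00617). For these 3 genes BM sorted 1 lay above BM sorted 2 and 3 and far below every BAC depleted library. Masp1, a protease gene of the lectin pathway, was higher at 184, 228 and 230 CPM against 48.3, 32.1 and 69.2 (2.10 ± 0.29, adjusted p = 0.00495).

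Chemokine genes gave 3 higher, 3 lower and 7 that did not pass of 13 tested (median -1.08), and 1 higher and 0 lower without BM sorted 2 or BM sorted 3, with 1 lower without BM sorted 1. Cytokine genes gave 2 higher, 3 lower and 13 that did not pass of 18 tested (median -0.88). The latter had 0 higher without BM sorted 2 or BM sorted 3 and 5 lower without BAC depleted 2. In the 6-library fit the counts of both lists are near the 17.6% and 19.9% of all tested genes. Il34, which encodes a ligand of the macrophage receptor CSF1R, was at 6.60, 4.18 and 4.80 CPM against 72.1, 283 and 177 (-5.09 ± 0.57, adjusted p = 0.00325). Csf1, the other ligand of that receptor and chosen after its values were seen, was at 996, 1165 and 1085 CPM against 1111, 1552 and 2705 (-0.73 ± 0.35, adjusted p = 0.145). For Il34 every BAC depleted library was above every BM sorted library, while for Csf1 BAC depleted 1 lay within the range of BM sorted. Il16, a T-cell chemoattractant gene, was at 1.03, 0.653 and 0.364 CPM against 17.0, 18.5 and 18.1 (-4.71 ± 0.39, adjusted p = 0.0019). Tnfsf11, which encodes the osteoclast factor RANKL, was higher at 20.7, 24.0 and 28.9 CPM against 0.996, 6.45 and 0.776 (3.16 ± 0.84, adjusted p = 0.0299), and did not pass without BM sorted 1, 2 or 3 or BAC depleted 1 or 3 (adjusted p up to 0.0952).

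BMP and TGF-beta ligands gave 2 higher, 4 lower and 11 that did not pass of 17 tested (median -0.28), and 0 higher and 1 lower without BM sorted 2 or BM sorted 3. Without BM sorted 1 there was 1 lower, and without BAC depleted 1 and BAC depleted 2, each left out alone, 1 and 4 were higher. In the 6-library fit the ligand counts are near the 17.6% and 19.9% of all tested genes. Gdf10, a BMP family ligand gene also known as Bmp3b, was at 2.32, 0.653 and 0.608 CPM against 158, 313 and 53.1 (-7.20 ± 0.97, adjusted p = 0.00464). Inhba, which encodes the activin A chain, was at 451, 921 and 716 CPM against 64.6, 165 and 226 (2.19 ± 0.51, adjusted p = 0.0201), and did not pass without BM sorted 2 or 3 (adjusted p up to 0.0709). Antagonists of these ligands were lower for 5 of 13, higher for 1, and 7 did not pass (median -1.18). Without BM sorted 2 there were 3 lower, and without BM sorted 3 there were 2. Chrdl1, which encodes a chordin-like BMP antagonist, was at 61.0, 4.78 and 5.04 CPM against 1015, 1677 and 1258 (-5.80 ± 1.24, adjusted p = 0.0155; 0.0523 without BM sorted 3), and among BM sorted libraries it was again highest in BM sorted 1. Chrd, which encodes chordin, was at 3.25, 4.42 and 3.55 CPM against 15.7, 8.69 and 15.8 (-1.84 ± 0.29, adjusted p = 0.0067).

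Wnt ligands and R-spondins gave 3 higher, 2 lower and 5 that did not pass of 10 tested (median -0.39), and at most 1 higher and 0 lower when any 1 of the BM sorted libraries was left out. Wnt4 was at 9.98, 19.9 and 9.17 CPM against 0.0642, 1.09 and 0.245 (4.79 ± 0.93, adjusted p = 0.0118; 0.0508 without BM sorted 2). Wnt antagonists were lower for 3 of 9, and 6 did not pass (median -1.57); the count was 1 without BM sorted 1, BM sorted 2 or BAC depleted 3 and 2 without BM sorted 3, and 3 were higher without BAC depleted 2. Apcdd1, a membrane inhibitor of Wnt signals, was at 3.68, 6.86 and 5.86 CPM against 16.6, 16.5 and 19.0 (-1.67 ± 0.25, adjusted p = 0.00602).

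Genes of fibroblast, platelet-derived and vascular growth factors gave 7 higher, 7 lower and 11 that did not pass of 25 tested (median 0.05). When any 1 BM sorted library was left out 3 to 5 were higher and 3 or 4 lower, and without BAC depleted 1 there were 4 higher. Pgf, which encodes placental growth factor, was at 12.4, 17.3 and 19.7 CPM against 0.385, 1.72 and 0.694 (4.14 ± 0.57, adjusted p = 0.00489), and Angpt2, a vessel-destabilising angiopoietin gene, at 7.09, 9.05 and 11.4 CPM against 0.610, 0.841 and 0.613 (3.73 ± 0.31, adjusted p = 0.0019). Vegfd, a lymphatic growth factor gene, was lower at 15.3, 9.08 and 11.3 CPM against 465, 627 and 96.4 (-5.06 ± 0.75, adjusted p = 0.00583). Pgf, Angpt2 and Vegfd were picked among the called ones. Both counts of 7 stand beside 17.6% higher and 19.9% lower of all tested genes. Of 11 genes of the insulin-like growth factor system, 3 were lower and 8 did not pass (median -1.86), with 2 lower when any 1 of the BM sorted libraries was left out and 3 higher without BAC depleted 2. Igf1 was at 65.0, 140 and 96.7 CPM against 283, 421 and 495 (-1.99 ± 0.35, adjusted p = 0.00844), and the binding protein gene Igfbp3 at 1.03, 0.594 and 0.364 CPM against 108, 82.7 and 57.3 (-6.97 ± 0.47, adjusted p = 0.00166).

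**Figure D4:**
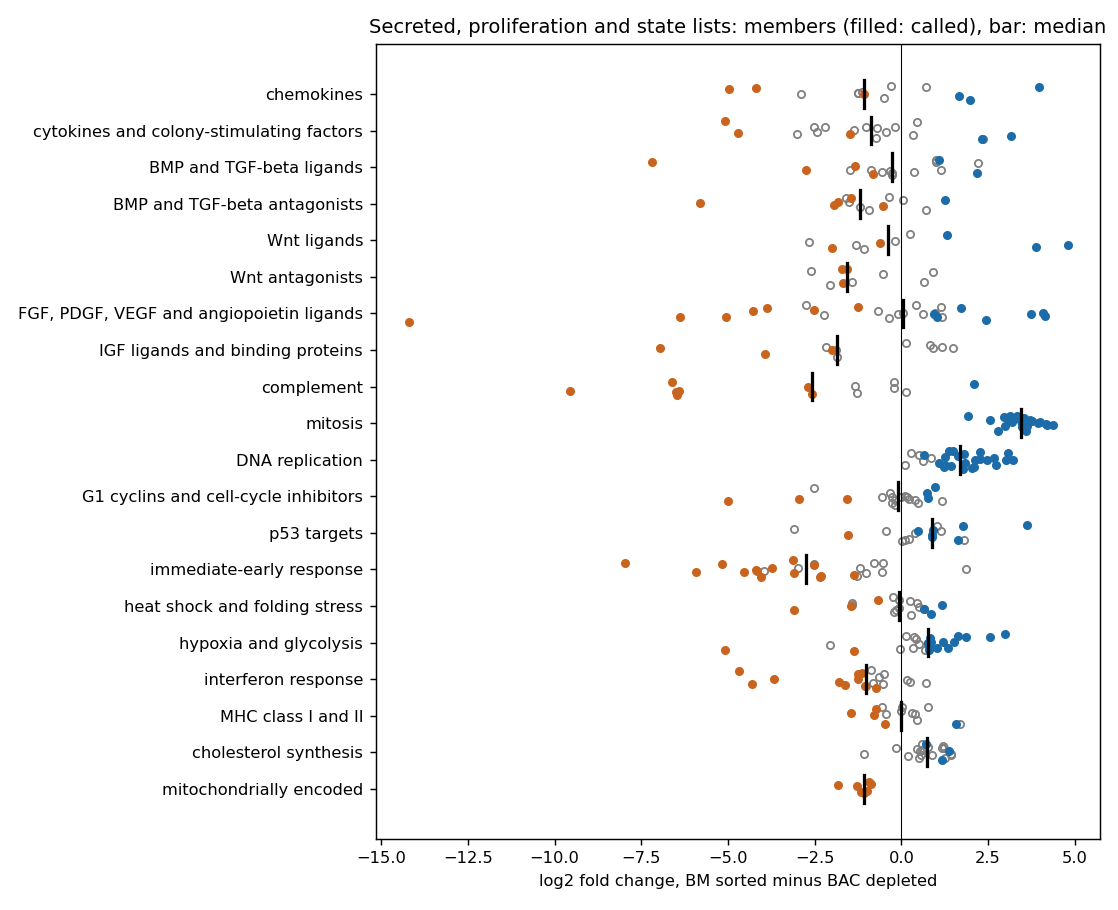
Log2 fold change (BM sorted minus BAC depleted) of each tested member of the secreted-factor, proliferation and cell-state lists, filled where called and open where not, with a bar at the median. All 26 mitosis genes lie right of 0 (median 3.46), while the immediate-early genes (-2.75) and complement genes (-2.57) lie mostly left.

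All 26 genes of the mitosis list were higher in BM sorted, with a median log2 fold change of 3.46. The groups did not overlap for any of the 26, against 54.8% of all tested genes. The count of higher mitosis genes was 26 without BAC depleted 1 and 23 without BM sorted 2 or BM sorted 3. Summed levels were 1020, 1120 and 1540 CPM in BM sorted and 63.2, 215 and 90.9 CPM in BAC depleted. Ube2c, which encodes the ubiquitin-conjugating enzyme of mitotic exit, was at 19.4, 27.9 and 42.1 CPM against 0.867, 3.23 and 0.858 (4.17 ± 0.65, adjusted p = 0.0065). Mki67, which encodes the proliferation antigen Ki-67 and was chosen after its values were seen, was at 123, 112 and 152 CPM against 4.27, 23.7 and 6.58 (3.48 ± 0.68, adjusted p = 0.0119). BAC depleted 2 was the highest of its group for both genes. Top2a, the DNA topoisomerase gene of dividing cells, was at 202, 204.5 and 267 CPM against 5.39, 34.3 and 11.8 (3.71 ± 0.69, adjusted p = 0.0107), and Ccnb2, which encodes cyclin B2, at 22.1, 21.2 and 29.5 CPM against 0.803, 4.45 and 1.27 (3.48 ± 0.66, adjusted p = 0.011). Cdk1, whose kinase drives entry into mitosis, had the smallest difference of the list, at 46.5, 55.3 and 72.5 CPM against 8.70, 21.1 and 16.6 (1.91 ± 0.35, adjusted p = 0.0102). The last 3 genes were likewise chosen after their values were seen.

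Since these genes moved together, their promoters were searched for a pair of short elements known from cell-cycle genes: the CCAAT box and TTTGAA, the cell cycle homology region. Both were looked for on both strands in the 250 bases before the gene start given by RefSeq (GRCm38.p6, 1 start per gene). CCAAT was found in 19 of the 22 mitosis genes with a promoter entry (86.4%) and in 34.5% of 27025 promoters of all genes and 36.8% of 10848 promoters of tested genes. A high share was not particular to mitosis genes: it was 65.2% for DNA replication and 58.3% for contractile genes. It was 28.6% for cartilage and 23.8% for immediate-early genes. TTTGAA was found in 8 of the 22 (36.4%), against 16.3% and 10.5%. The same 8 held both elements (36.4%), against 5.73% and 4.17%. These shares are descriptions of letters in these windows and carry no test. The promoters of 4 genes that hold both elements are printed 5' to 3' to show how the letters are arranged, chosen after the matches were seen. Letters of CCAAT or TTTGAA on either strand are in capitals, and no CCAAT overlaps a TTTGAA. Ube2c is at chr2:164769679-164769928 on the plus strand, Top2a at chr11:99024190-99024439, Ccnb2 at chr9:70421555-70421804 and Mki67 at chr7:135716380-135716629, the last 3 on the minus strand.
Ube2c: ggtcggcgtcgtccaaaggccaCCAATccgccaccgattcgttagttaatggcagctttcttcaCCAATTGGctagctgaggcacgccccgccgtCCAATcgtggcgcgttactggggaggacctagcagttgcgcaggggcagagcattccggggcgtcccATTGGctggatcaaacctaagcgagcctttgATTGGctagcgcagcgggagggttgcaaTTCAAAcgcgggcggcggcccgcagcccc
Top2a: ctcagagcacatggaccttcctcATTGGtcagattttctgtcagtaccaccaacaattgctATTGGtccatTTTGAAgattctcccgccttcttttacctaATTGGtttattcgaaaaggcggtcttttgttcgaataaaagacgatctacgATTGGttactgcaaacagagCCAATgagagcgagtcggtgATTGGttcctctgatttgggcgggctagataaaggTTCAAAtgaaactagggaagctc
Ccnb2: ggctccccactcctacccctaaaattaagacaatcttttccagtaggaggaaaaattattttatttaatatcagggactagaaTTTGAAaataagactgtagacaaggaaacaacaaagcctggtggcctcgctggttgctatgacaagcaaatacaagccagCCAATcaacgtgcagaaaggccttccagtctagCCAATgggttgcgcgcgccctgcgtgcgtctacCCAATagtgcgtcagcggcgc
Mki67: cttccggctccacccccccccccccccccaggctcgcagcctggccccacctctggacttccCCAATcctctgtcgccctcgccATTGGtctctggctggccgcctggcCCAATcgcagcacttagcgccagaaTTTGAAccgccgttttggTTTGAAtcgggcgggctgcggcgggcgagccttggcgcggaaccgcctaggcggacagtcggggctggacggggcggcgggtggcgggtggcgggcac

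In Ube2c and Top2a the CCAAT box occurs 6 times, and in Ccnb2 and Mki67 3 times. TTTGAA occurs 1 time in Ube2c and Ccnb2 and 2 times in Top2a and Mki67. The stretch CCAATTGG of Ube2c holds a CCAAT on each strand, and these overlap while both are counted.

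DNA replication genes were higher for 23 of 28 tested, lower for 0, and 5 did not pass (median 1.7), with 17 to 23 higher in the fits without 1 library. Uhrf1, which keeps DNA methylation through replication, was at 37.9, 40.1 and 57.3 CPM against 5.01, 6.80 and 4.29 (3.07 ± 0.26, adjusted p = 0.0019), and Mcm5, a subunit gene of the replicative helicase, at 25.2, 29.5 and 40.2 CPM against 2.28, 7.01 and 2.45 (3.01 ± 0.50, adjusted p = 0.00786). G1 cyclins and cell-cycle inhibitors gave 3 higher, 3 lower and 14 that did not pass of 20 (median -0.10). Cdkn1c, which encodes the inhibitor p57, was lower in BM sorted, at 3.38, 2.05 and 5.13 CPM against 32.4, 22.2 and 26.3 (-2.94 ± 0.36, adjusted p = 0.0038). Rbl2, which encodes the pocket protein p130 of resting cells, was at 41.5, 34.5 and 30.5 CPM against 112, 100.3 and 104 (-1.57 ± 0.14, adjusted p = 0.00225), and Gas1, a growth-arrest gene, at 80.9, 46.8 and 51.2 CPM against 3783, 815 and 1101 (-4.99 ± 0.73, adjusted p = 0.00559). Not all genes of growth restraint were lower. Trp53, which encodes the tumour suppressor p53, and Rbl1, a pocket protein gene related to Rbl2, were called higher (log2 0.77 and 0.73). Cdk4, the G1 kinase gene, was also higher, at 223, 205 and 225 CPM against 103, 133 and 99.9 (0.96 ± 0.15, adjusted p = 0.0065). Cyclin D1 and the inhibitor p21 did not follow: Ccnd1 was at 310, 268 and 221 CPM against 339, 243 and 375 (-0.26 ± 0.22, adjusted p = 0.378) and Cdkn1a at 227, 352 and 283 CPM against 217, 235 and 207 (0.39 ± 0.19, adjusted p = 0.149), both chosen after their values were seen.

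Of 17 targets of the tumour suppressor p53, 7 were higher, 1 was lower and 9 did not pass (median 0.87), with 3 higher without BM sorted 2 or BM sorted 3. Gtse1, a mitosis-linked regulator of p53, was at 35, 49.5 and 52.2 CPM against 12.8, 17.8 and 9.43 (1.77 ± 0.28, adjusted p = 0.0065), and Eda2r, a death-domain receptor gene, at 57.2, 71.2 and 73.4 CPM against 22.5, 26.5 and 15.7 (1.64 ± 0.22, adjusted p = 0.00434). Sesn1, a stress sensor gene, was lower at 20.7, 13.4 and 14.4 CPM against 61.1, 42.2 and 38 (-1.54 ± 0.25, adjusted p = 0.0073).

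Immediate-early genes, which respond within minutes to serum or stress, were lower in BM sorted for 14 of 24 tested, higher for 0, and 10 did not pass (median -2.75). The count varied with single libraries. The summed level of the list was 1270, 1230 and 1300 CPM in BM sorted and 1770, 13600 and 16500 CPM in BAC depleted, so BAC depleted 1 lay near BM sorted. Without BAC depleted 1 there were 22 lower, without BAC depleted 2 or BAC depleted 3 there were 7, without BM sorted 1 there were 3, and without BM sorted 2 or BM sorted 3 there was 1. Fosb was at 4.38, 3.27 and 3.31 CPM against 60, 1143 and 1561 (-7.98 ± 1.31, adjusted p = 0.00749; -8.53 without BAC depleted 1). Fos was at 47.6, 23.6 and 28 CPM against 186, 2818 and 3050 (-5.93 ± 1.12, adjusted p = 0.011), and did not pass without BM sorted 2 or 3 (adjusted p up to 0.0592). Both encode AP-1 transcription factors, and BAC depleted 1 was the lowest of its group and still above every BM sorted library.

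**Figure D5:**
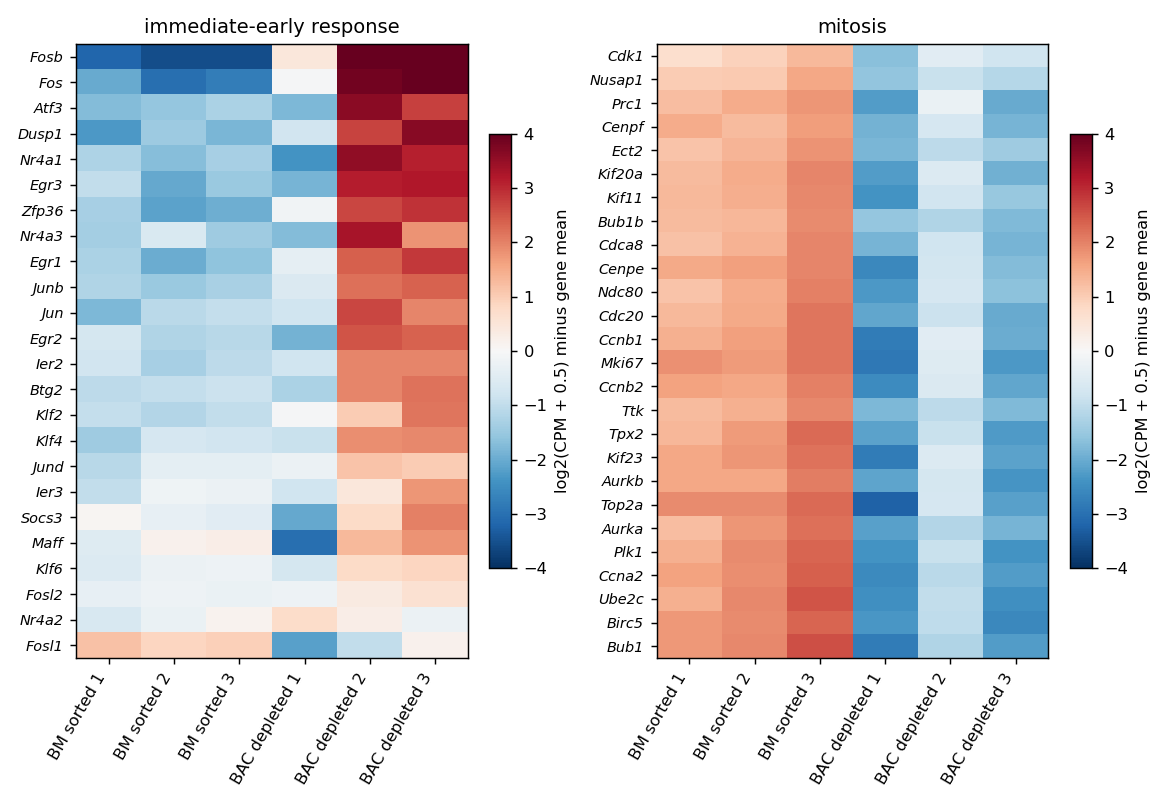
Level of each tested immediate-early gene (left) and mitosis gene (right) in each library, as log2(CPM + 0.5) minus the gene's mean over the 6 libraries, from blue (low) to red (high). BAC depleted 2 and 3 are red for most immediate-early genes while BAC depleted 1 resembles BM sorted, and for mitosis the groups separate for all 26 genes.

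Hypoxia and glycolysis genes were higher for 13 of 26, lower for 2, and 11 did not pass (median 0.78), with 8 higher without BM sorted 1, 7 without BM sorted 2 and 5 without BM sorted 3. Egln3, an oxygen-sensing hydroxylase gene, was at 114, 83.7 and 88.3 CPM against 11.5, 12.5 and 12.2 (2.98 ± 0.16, adjusted p = 0.00141), and the glucose transporter gene Slc2a3 at 42.0, 18.9 and 28.5 CPM against 3.66, 6.97 and 4.57 (2.55 ± 0.38, adjusted p = 0.00581). Ndrg1, which is induced by low oxygen as well as by growth arrest, went the other way at 14.2, 12.2 and 7.66 CPM against 371, 378 and 401 (-5.08 ± 0.27, adjusted p = 0.00143). Neither group overlapped the other for these 3 genes. Interferon-response genes were lower for 10 of 19, higher for 0, and 9 did not pass (median -1.01), with 6 lower without BM sorted 2 or BM sorted 3. Ifit3, an interferon-induced antiviral gene, was at 2.19, 1.25 and 1.58 CPM against 35.5, 19.8 and 44.4 (-4.31 ± 0.39, adjusted p = 0.00234).

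Transcripts of the mitochondrial genome were lower in BM sorted for 7 of 7 tested genes (median -1.07), with 4 lower without BM sorted 1 or BM sorted 2 and 1 without BM sorted 3. They took 1.08%, 1.21% and 1.12% of the counts in BM sorted and 2.62%, 2.05% and 1.82% in BAC depleted. mt-Nd2, a respiratory complex I subunit gene, was at 802, 865 and 841 CPM against 3521, 2761 and 2701 (-1.84 ± 0.20, adjusted p = 0.00307). Of the 13 listed mitochondrial genes, 5 had 0 counts in all 6 libraries. The share therefore covers only part of the mitochondrial genome and is a limited sign of RNA and cell quality. It moved with the groups, and its part in the other differences was not tested.

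The unpurified preparations of the same skeletal sites, 3 libraries of unsorted marrow cultures (BM nonsorted) and 3 of undepleted bone-associated cells (BAC nondepleted), share no library with the comparison above and hold macrophages. Adgre1 was at 306, 285 and 332 CPM in BM nonsorted and 1033, 973 and 912 CPM in BAC nondepleted. By the same test, 6225 of 14686 genes differed between them (42.4%; 21% higher and 21.4% lower in BM nonsorted). Of 13929 genes tested in both, 5210 were called in the purified and 5769 in the unpurified comparison, and 3133 in both. Of those, 3041 had the same direction, 1474 higher and 1567 lower in marrow, which is 58.4% of the purified and 52.7% of the unpurified calls, and 92 had opposite directions.

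The marker genes lay the same way in the unpurified libraries. Actg2 was at 1012, 1102 and 765 CPM in BM nonsorted and 3.96, 5.11 and 5.66 CPM in BAC nondepleted (7.61 ± 0.25, adjusted p = 0.000154), and Dcn at 0.623, 0.712 and 0.540 CPM against 121, 414.5 and 1651 (-10.18 ± 1.31, adjusted p = 0.00277). Mcam (6.02 ± 0.51, adjusted p = 0.00103) and Cd34 (-3.95 ± 0.61, adjusted p = 0.00479) also passed. Other named genes did not all follow. Of the 12 largest rises, Cd93 (-1.03 ± 0.14, adjusted p = 0.00286) and Slfn2 (-0.81 ± 0.22, adjusted p = 0.0267) were lower in BM nonsorted, and the rest lay above 0. Cxcl12 was higher there (1.67 ± 0.38, adjusted p = 0.0156). Tbx4 was at 14.7, 2.93 and 0.191 CPM in BAC nondepleted and did not pass (-4.37 ± 1.59, adjusted p = 0.0707). All 16 contractile genes were higher in BM nonsorted (median 2.71), and 8 of 12 small leucine-rich proteoglycans (median -1.94), 11 of 15 complement genes (-1.39), 24 of 25 immediate-early genes (-1.81) and 18 of 22 interferon-response genes (-2.17) were lower. The complement count includes the macrophage genes C1qa, C1qb and C1qc (-1.31, -1.29 and -1.33), which had too few counts to be tested in the purified comparison. Mitosis genes were higher for 25 of 26, with a median of 0.91 where the purified groups had 3.46. Mki67 was at 197, 176 and 165 CPM against 129, 104.5 and 104 (0.67 ± 0.12, adjusted p = 0.00713). Cartilage genes were lower for 6 of 16 (median -0.82 where the purified groups had -5.94), mitochondrial genes for 0 of 7 (median 0.12), and hypoxia genes were higher for 5 and lower for 6 of 26 (median 0.05). Macrophage markers were lower in BM nonsorted for 18 of 20, and the number of macrophages and their RNA content cannot be told apart. Differences between the purified and the unpurified comparison were not tested.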

How the data were processed

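Column-purified total RNA (50 ng) went into a low-input library kit, per the labels' protocols. The authors deposited a table of raw read counts per gene; STAR 2.7.9a, MultiQC 1.7, Subread 2.0.1 with featureCounts, and genome build GRCm39 are listed in the submitters' processing notes. No source used here gives the annotation release or strand setting, so values of genes that overlap, lie antisense or have near-identical copies are uncertain. Of 53819 entries, 25296 had 0 counts in the 6 libraries, and 1442 named only by an identifier held 0.0206% of counts and were kept. No coordinates of GRCm39 were used; promoters are from RefSeq, GRCm38.p6.

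The 6 libraries were fitted in edgeR 4.0.16 (R 4.3.3; TMM scaling, filterByExpr, robust quasi-likelihood F test, common dispersion 0.118, 4 residual degrees of freedom) with Benjamini-Hochberg adjustment over 14549 genes, called at an adjusted p under 0.05. SE is the size of the log2 fold change over the square root of F and is unreliable near 0 counts. Levels are CPM on TMM sizes, which do not compare genes with each other. A group at 0 is given a floor of 3 counts; floors and 95% intervals (exact) cover counting error only. Alternatives were other filters and scalings, DESeq2 1.42.0, limma 3.58.1 voom, all 12 libraries in 1 fit, a replicate block, and each library left out. The test was run on simulated data with the same dispersion of 0.05 in both groups. The data had a common dispersion of 0.118 and more spread in BAC depleted, so that run cannot vouch for unequal spread.

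Named were the 4 markers, 7 sort antigens, 5 sex-linked genes, the 12 largest rises and 12 largest falls among genes called with and without BAC depleted 1 (no overlap, at least 20 CPM in the higher group, no predicted, clone, pseudogene or unnamed entries), and up to 3 called members per direction of each list with at least 5 CPM. Members, lists and rule were chosen with earlier results of these data known, and the unpurified comparison was added after seeing the data.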

Additional observations from a re-analysis of the deposited data

How the results depend on the processing

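The count of 5446 called genes (2555 higher and 2891 lower in BM sorted) was 4386 (2163 and 2223) with the replicate number as a block, 4794 without a low-count filter, 5014 with a stricter filter, 5410 with DESeq2 size factors, 5408 with upper quartile scaling, 6433 with the DESeq2 Wald test, 6160 with limma-voom and 7447 with all 12 libraries in the fit. Leaving out 1 library gave 2099 to 5640 calls, 1028 to 2866 lower and 1071 to 2774 higher; the lowest counts were 2099 (1071 higher, 1028 lower) without BM sorted 3 and 2226 (1127 and 1099) without BM sorted 2. The block rests on numbers that were not shown to pair the libraries: the deviations of same-numbered libraries correlated at 0.15, 0.05 and 0.10, and with the block 26 of the named genes no longer passed and 1 newly passed. Of 197 named genes called, 115 were called in all 6 fits with a library left out; 80 did not pass without BM sorted 3, 76 without BM sorted 2, 48 without BM sorted 1, 22 without BAC depleted 3, 15 without BAC depleted 1 and 9 without BAC depleted 2. Signs changed for 5 genes that did not pass in any of these fits, with log2 fold changes over the fits of -0.01 to 0.39 for Ly6a and -0.35 to 0.99 for Ddx3y (lowest without BAC depleted 1), -1.26 to 0.15 for Cxcl12 and -0.47 to 0.27 for Pdgfrb (highest without BAC depleted 2), and -2.12 to 0.08 for Col2a1 (highest without BAC depleted 3), and the cause was not tested. No called gene among those named changed sign under any alternative run. With 3 libraries a group and wide spread in BAC depleted, genes of moderate change and low counts are the least certain.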

Other observations

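Of 18 heat shock and folding genes, 3 were higher, 3 lower and 12 did not pass (median -0.06), with 1 each way without BM sorted 2 or BM sorted 3 and 5 lower without BAC depleted 1. Hspd1, which encodes the mitochondrial chaperonin, was at 174, 215 and 259 CPM in BM sorted and 90.2, 94.2 and 104 CPM in BAC depleted (log2 1.17 ± 0.17, adjusted p = 0.00561 by edgeR's quasi-likelihood test), and Dnaja1, a co-chaperone gene, was at 48.3, 56.9 and 61.1 against 97.8, 178 and 174 (-1.44 ± 0.25, adjusted p = 0.00883). Of 14 MHC genes 1 was higher, 4 lower and 9 did not pass (median 0), with 1 lower without BM sorted 2 or BM sorted 3 and 2 without BAC depleted 1 or BAC depleted 3. The proteasome subunit gene Psmb8 was higher at 29.0, 22.3 and 22.4 CPM against 7.13, 11 and 6.37 (1.58 ± 0.25, adjusted p = 0.00657), and the non-classical gene H2-T23 lower at 21.1, 16.1 and 12.2 CPM against 38.8, 44.7 and 52.1 (-1.46 ± 0.23, adjusted p = 0.00658). Of 20 cholesterol synthesis genes 3 were higher, 0 lower and 17 did not pass (median 0.74); without BAC depleted 2, the library with the highest summed level of its group (966 CPM against 359 and 476), 18 were higher, and without any other 1 library 0 or 1.

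Markers of other tissues were few. Of 21 skeletal muscle genes 11 were tested, 1 was higher and 1 lower, and the sums were 38.3 to 103 CPM in BM sorted and 27.2 to 85.0 CPM in BAC depleted. Acta1, the skeletal actin gene, was at 22.7, 52.1 and 20.9 CPM against 7.07, 3.89 and 6 (log2 2.5 ± 0.44, adjusted p = 0.00907). Of 10 Schwann and neural genes 5 were tested, 1 was higher and 2 lower, with sums of 196 to 323 CPM against 125 to 193 CPM. Of 16 lymphoid and erythroid genes only Itga2b was tested, at 3 to 4.61 CPM in BM sorted and 3.44 to 8.16 CPM in BAC depleted, and it did not pass (-0.66 ± 0.38, adjusted p = 0.22).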
